A study of Mus musculus with 4 samples.

Results

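MHC class I molecules display short peptides from inside the cell to cytotoxic T cells and natural killer cells, and the 10 genes described here make and load them. They are the heavy chain genes H2-K1 and H2-D1, the light chain gene B2m, the peptide transporter genes Tap1 and Tap2, the loading factor gene Tapbp, the immunoproteasome subunit genes Psmb8, Psmb9 and Psmb10, and the class I transactivator gene Nlrc5. They were taken by name from the 55399 genes of the count table, and all 10 were present and passed the filter on low counts that left 16393 tested genes. Expression was measured by bulk RNA-seq in 4 libraries of mouse bone marrow cells labelled Lsk, the usual abbreviation for marrow cells that lack lineage markers and carry Sca-1 and Kit, among them blood stem cells and multipotent progenitors. Of these, 2 libraries were labelled Ppm1bCKO, a conditional knockout of the Ppm1b phosphatase gene, and 2 were labelled Ppm1bfl/fl, in which the alleles are flanked by loxP sites. The Cre driver, the strain, the age of the mice and whether a library came from a single animal or a pool are not given in the sources used here, so the p-values cover the spread between these libraries, which may be technical.

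In the cell, proteins are cut by the proteasome, and in blood cells and under interferon the immunoproteasome subunits replace the constitutive catalytic ones. The transporter formed by Tap1 and Tap2 moves the peptides into the endoplasmic reticulum, where tapasin (Tapbp) holds an empty heavy chain and its light chain, β2-microglobulin (B2m), until a peptide binds. Nlrc5 acts with the RFX, CREB/ATF and NF-Y factors on the promoters of some of these genes. Interferons raise the transcription of all of these steps.

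Promoters of 4 of the genes are shown because class I genes share promoter elements. Those shown all held motifs marked below, which Psmb8 and Psmb10 lacked. RefSeq promoter windows on GRCm38.p6, of 250 bases before and 50 after an annotated start, matched 8 of the 10 genes, all but Tap2 and Nlrc5. The first annotated window of each was used. The windows of H2-K1 (chr17:34000298-34000597, minus strand), H2-D1 (chr17:35262844-35263143, plus strand), B2m (chr2:122147437-122147736, plus strand) and Tap1 (chr17:34187306-34187605, plus strand) read, 5′ to 3′:
H2-K1: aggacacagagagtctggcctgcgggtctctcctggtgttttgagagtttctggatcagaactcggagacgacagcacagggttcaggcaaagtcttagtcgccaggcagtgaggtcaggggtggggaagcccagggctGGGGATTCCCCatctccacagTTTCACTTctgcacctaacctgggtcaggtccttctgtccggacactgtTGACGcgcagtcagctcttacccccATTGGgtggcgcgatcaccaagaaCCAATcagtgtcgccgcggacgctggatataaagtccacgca
H2-D1: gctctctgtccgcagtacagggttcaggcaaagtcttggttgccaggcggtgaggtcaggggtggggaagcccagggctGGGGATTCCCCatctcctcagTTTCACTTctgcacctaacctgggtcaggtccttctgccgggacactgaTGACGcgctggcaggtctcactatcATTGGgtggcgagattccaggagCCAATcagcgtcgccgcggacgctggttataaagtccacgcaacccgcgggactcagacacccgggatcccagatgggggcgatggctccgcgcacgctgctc
B2m: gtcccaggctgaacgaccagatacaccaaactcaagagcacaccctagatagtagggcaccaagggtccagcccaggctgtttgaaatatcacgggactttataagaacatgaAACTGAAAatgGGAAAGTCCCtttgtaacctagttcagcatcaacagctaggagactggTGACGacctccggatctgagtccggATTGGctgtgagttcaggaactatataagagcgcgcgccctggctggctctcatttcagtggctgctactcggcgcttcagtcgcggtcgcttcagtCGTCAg
Tap1: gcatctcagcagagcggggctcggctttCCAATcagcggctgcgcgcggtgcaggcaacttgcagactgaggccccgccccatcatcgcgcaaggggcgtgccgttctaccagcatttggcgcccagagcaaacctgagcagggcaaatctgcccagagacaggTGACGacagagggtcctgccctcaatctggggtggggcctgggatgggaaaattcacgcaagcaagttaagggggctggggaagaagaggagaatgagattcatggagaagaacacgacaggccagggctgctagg
Capitals mark matches, on either strand, to 4 motifs. They are the κB consensus bound by NF-κB, a core of the interferon-stimulated response element (AANNGAAA), TGACG, and the CCAAT box bound by NF-Y. TGACG is the core of the cyclic AMP response element in the X box of class I promoters, whose Y box is a CCAAT box. The letters alone do not make a match an X or Y box. A TGACG match of B2m and a CCAAT match of H2-K1 lay after the annotated start. In the Tap1 window the CCAAT match lay upstream of TGACG. Matches to different motifs did not overlap, and the κB consensus matched both strands at adjoining positions in the heavy chain promoters.

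The 2 heavy chain promoters were close copies. Over 228 aligned columns with 1 gap column they shared 206 bases, or 90.4% identity, and both held a κB match, the interferon element core, TGACG and 2 CCAAT boxes in the same order. B2m held the interferon element core, then a κB match, 2 matches to TGACG and 1 CCAAT box. Of 32851 promoter windows 8.46% held the κB consensus, 23.9% the interferon element core, 20.8% TGACG and 37.4% the CCAAT box, so a single match is common. Among the 8 genes with a window, 3 (H2-K1, H2-D1 and B2m) held the κB consensus and the interferon element core. TGACG was in 5 of the 8 and the CCAAT box in 6. Tapbp held only CCAAT matches, and Psmb8 and Psmb10 held none of these motifs. Tap1 and Psmb9 lie head to head, and their windows shared 275 of 300 bases, so the TGACG and CCAAT matches of the Tap1 window are also those of Psmb9. Another motif, the gamma-activated site (TTCNNNGAA), was in 8.3% of windows and, among the 8 genes, in the window of Psmb8. The motif letters were chosen after these sequences had been read, and a match is not a measured binding site.

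Total counts were 22393973 and 24856083 in the libraries labelled Ppm1bCKO and 26002277 and 30045382 in the Ppm1bfl/fl libraries. Ppm1b itself had 84.3 and 120.6 CPM (counts scaled to library size) in libraries labelled Ppm1bCKO, against 80.8 and 82.5 CPM in Ppm1bfl/fl, so it was not lower and the counts do not check the labels. Ppm1bCKO replicate 2 stood apart by gene length. Its median centred log2 CPM was 0.27 for tested genes of 1000 to 2000 exonic bases and -0.25 for those over 8000, while the medians of the other 3 libraries in these classes ran from -0.10 to 0.11. Kit, a receptor that defines the fraction, had 187 and 121 CPM in libraries labelled Ppm1bCKO and 228 and 194 CPM in Ppm1bfl/fl. Ly6a, which encodes Sca-1, had 17.7 and 22.2 CPM in libraries labelled Ppm1bCKO and 22.2 and 18.3 CPM in Ppm1bfl/fl. Of 10 LSK progenitor markers, Kit and Ly6a among them, 2 had a positive log2 fold change. These markers summed to 529 and 469 CPM in libraries labelled Ppm1bCKO and 626 and 510 CPM in Ppm1bfl/fl, which overlapped. Markers of mature cells were abundant. For 8 erythroid markers the sums were 11056 and 15693 CPM in libraries labelled Ppm1bCKO and 7415 and 13023 CPM in Ppm1bfl/fl. For 8 neutrophil markers they were 4231 and 5032 CPM in libraries labelled Ppm1bCKO and 4190 and 4040 CPM in Ppm1bfl/fl. All nucleated blood cells carry class I molecules, and in such bulk RNA more cells of a type with much class I and more RNA per cell cannot be told apart.

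Every gene of the group except Nlrc5 was higher in both libraries labelled Ppm1bCKO than in both Ppm1bfl/fl libraries, by 1.13-fold to 1.47-fold, and 0 of the 10 passed the test. The libraries did not overlap for 9 of the 10 genes, a pattern that 20.6% of all tested genes showed in this direction, and 9 were positive where 49.6% of all genes were. With edgeR's quasi-likelihood test and Benjamini-Hochberg adjustment over all tested genes, 0 of 10 were called where 0.372% of all genes were, and 0.061% of all genes were called higher. DESeq2 and limma-voom also called 0 of the 10, with 1.24% and 0.305% of all genes called. Those called higher were 0.417% of all genes by DESeq2 and 0.0488% by limma-voom. At an unadjusted p under 0.05, edgeR had 2 of the 10, B2m and Tapbp, both higher, where 6.44% of all genes had one and 3.23% of all genes had one and were higher. The median log2 fold change was 0.41 over the 10 genes and -0.0032 over all tested genes. The group was chosen with earlier results of these data known, so its shared sign is a description.

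**Figure D1:**
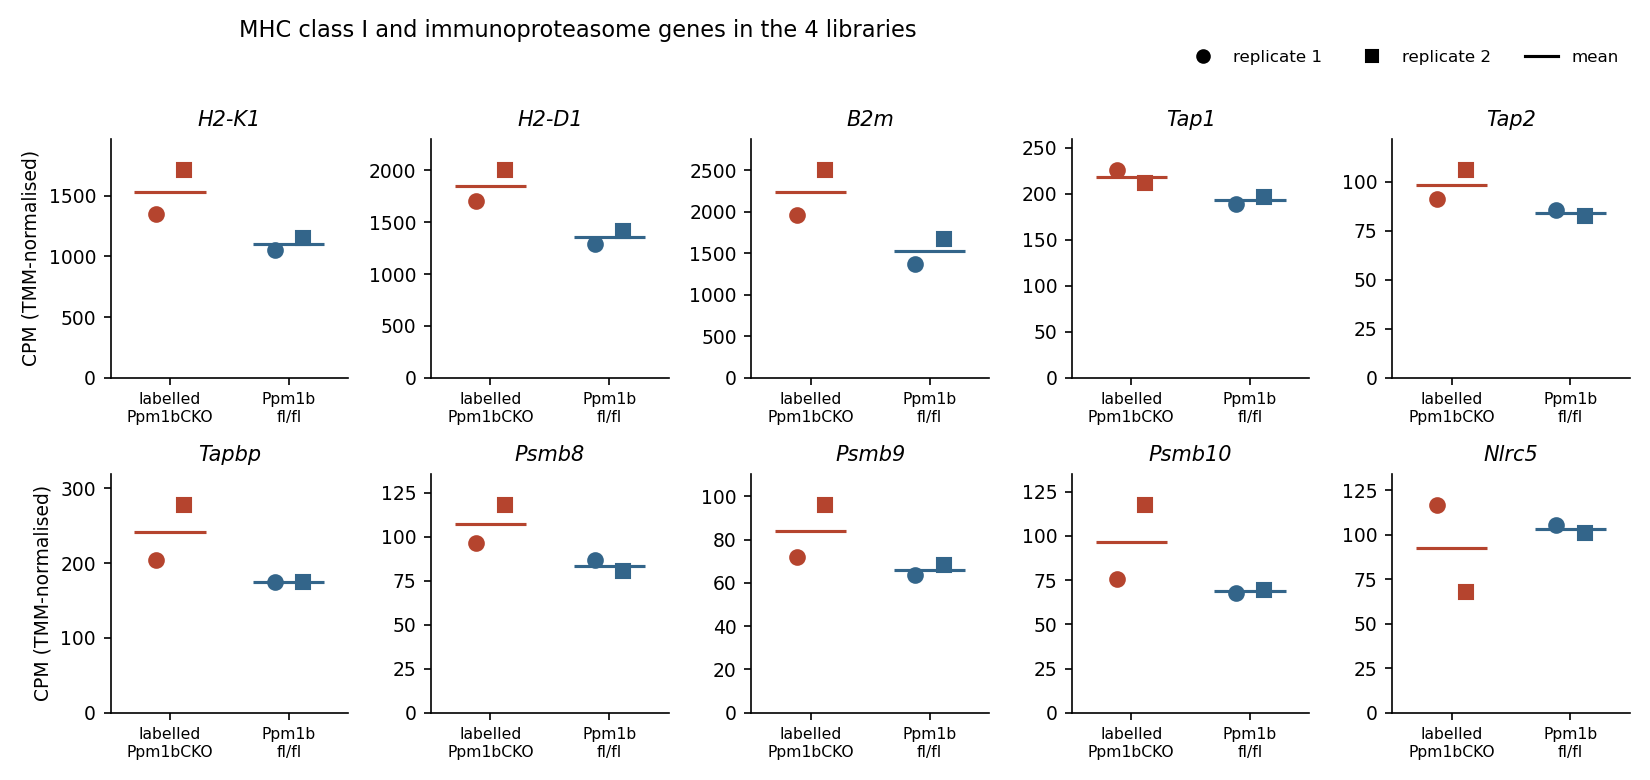
CPM (TMM-normalised, vertical axes from 0) of the 10 genes in the 2 libraries labelled Ppm1bCKO (red) and the 2 Ppm1bfl/fl libraries (blue), with circles for replicate 1, squares for replicate 2 and lines for group means. In every panel but Nlrc5 both red points lie above both blue points, and for Nlrc5 the red points lie on either side of the blue ones.

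The heavy chain genes were among the most abundant of the group. H2-K1 (ENSMUSG00000061232.16, chr17:33996017-34000347, minus strand, mm10) had 1351 and 1712 CPM in the libraries labelled Ppm1bCKO, against 1053 and 1154 CPM in Ppm1bfl/fl. The log2 fold change was 0.47 ± 0.21 (SE; adjusted p = 0.717 by edgeR). H2-D1 (ENSMUSG00000073411.12, chr17:35262730-35267499, plus strand) had 1702 and 2005 CPM in libraries labelled Ppm1bCKO, against 1292 and 1417 CPM in Ppm1bfl/fl (log2 fold change 0.45 ± 0.20, edgeR adjusted p = 0.717). For both genes replicate 2 was the highest of the 4 libraries and the genotypes did not overlap. Both encode classical heavy chains, which bind the peptide.

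Heavy chain genes share sequence, and how reads that match several places were treated was not given. Of the distinct 50-base stretches in their annotated transcripts, 9.63% of those of H2-K1 and 12.8% of those of H2-D1 also occurred in transcripts of other genes, among them H2-Q10, H2-Q1 and H2-Q7. Summing the counts of H2-K1 and H2-D1 removes the split between these 2. The sum reached 3053 and 3717 CPM in the libraries labelled Ppm1bCKO, against 2345 and 2572 CPM in Ppm1bfl/fl, with a log2 fold change of 0.46 ± 0.22 (adjusted p = 0.717 by edgeR). Per exonic kilobase, H2-D1 over H2-K1 was 1.44 and 1.33 in the libraries labelled Ppm1bCKO and 1.40 in each Ppm1bfl/fl library, so the balance between the 2 genes overlapped between genotypes.

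B2m (ENSMUSG00000060802.8, chr2:122147686-122153083, plus strand), whose product every class I heavy chain needs to reach the cell surface, had the largest log2 fold change of the group with all 4 libraries. With the length trend removed Tapbp was higher (0.43 against 0.37 for B2m), and without Ppm1bCKO replicate 1 or Ppm1bfl/fl replicate 1 Psmb10 was (0.77 against 0.72, and 0.47 against 0.41). It reached 1963 and 2504 CPM in the libraries labelled Ppm1bCKO, against 1375 and 1671 CPM in Ppm1bfl/fl, a log2 fold change of 0.55 ± 0.22 (adjusted p = 0.717 by edgeR, unadjusted p = 0.0368). The Ppm1bfl/fl libraries themselves differed by 0.28 on the log2 scale. B2m shared 0 of its 811 distinct 50-base stretches with other genes. Per exonic kilobase the heavy chain sum over B2m was 0.491 and 0.467 in the libraries labelled Ppm1bCKO and 0.537 and 0.485 in Ppm1bfl/fl (two-sided exact permutation p = 0.667 of 2 against 2 libraries, which cannot give less than 0.33). The ranges overlapped, with a difference of -0.09 on the log2 scale.

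The transporter genes had smaller log2 fold changes than the chains they serve. Tap1 (ENSMUSG00000037321.17, chr17:34187553-34197225, plus strand) had 226 and 211 CPM in the libraries labelled Ppm1bCKO, against 189 and 196 CPM in Ppm1bfl/fl, and was the only one of the 9 non-overlapping genes with a lower value in Ppm1bCKO replicate 2 than in replicate 1. The log2 fold change was 0.18 ± 0.16 (adjusted p = 0.750 by edgeR). Tap2 (ENSMUSG00000024339.12, chr17:34203527-34216321, plus strand) had 91.0 and 105.9 CPM in the libraries labelled Ppm1bCKO, against 85.2 and 82.5 CPM in Ppm1bfl/fl, with a log2 fold change of 0.23 ± 0.16 (adjusted p = 0.724 by edgeR). The margin between the nearest libraries of the 2 genotypes was small for both genes. It was also small for Psmb9 (72.0 CPM in Ppm1bCKO replicate 1, 68.1 CPM in Ppm1bfl/fl replicate 2) and Psmb10 (75.9 and 69.6 CPM in the same libraries). Per exonic kilobase, Tap1 over Tap2 was 1.71 and 1.38 in the libraries labelled Ppm1bCKO, a range that held the 1.53 and 1.64 of Ppm1bfl/fl. Differences in fold change between genes were not tested.

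Tapbp (ENSMUSG00000024308.15, chr17:33915899-33929292, plus strand), which bridges the transporter and the empty class I molecule, had 204 and 278 CPM in the libraries labelled Ppm1bCKO and 175 CPM in each Ppm1bfl/fl library. The log2 fold change was 0.46 ± 0.19 (adjusted p = 0.717 by edgeR, unadjusted p = 0.0398). The Ppm1bfl/fl libraries were level and both others were higher, replicate 2 by more. The annotated genes Gm19412 and Zbtb22 overlapped 29.0% of its exonic bases, 904 of the 3628 on the opposite strand. The strand setting of the counting was not given, so reads of Tapbp and of these genes cannot be told apart there. For Tap2 and Psmb8 18.5% and 14.7% of exonic bases overlapped other genes, and for the head-to-head pair Tap1 and Psmb9 3.87% and 5.79% overlapped each other.

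The immunoproteasome genes were higher in the libraries labelled Ppm1bCKO, mostly through replicate 2. Psmb8 (ENSMUSG00000024338.15, chr17:34197721-34201454, plus strand), which encodes the chymotrypsin-like subunit β5i, had 96.6 and 117.9 CPM in the libraries labelled Ppm1bCKO, against 86.6 and 80.4 CPM in Ppm1bfl/fl (log2 fold change 0.36 ± 0.17, edgeR adjusted p = 0.717). Psmb9 (ENSMUSG00000096727.3, chr17:34181987-34187764, minus strand), which encodes β1i, had 72.0 and 95.9 CPM in the libraries labelled Ppm1bCKO, against 63.4 and 68.1 CPM in Ppm1bfl/fl (0.35 ± 0.19, edgeR adjusted p = 0.717). Psmb10 (ENSMUSG00000031897.9, chr8:105935735-105938444, minus strand), which encodes β2i and lies outside the MHC, had 75.9 and 117.5 CPM in the libraries labelled Ppm1bCKO, against 67.8 and 69.6 CPM in Ppm1bfl/fl (0.49 ± 0.22, edgeR adjusted p = 0.717). Against the Ppm1bfl/fl mean, replicate 1 lay 0.13 to 0.21 higher on the log2 scale for these 3 genes and replicate 2 lay 0.50 to 0.77 higher.

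The constitutive subunits that they replace differed in the same direction and were also highest in replicate 2, with 0 of 3 called (0 at an unadjusted p under 0.05). Psmb5 (β5) had 66.1 and 114.5 CPM in the libraries labelled Ppm1bCKO, against 65.8 and 68.2 CPM in Ppm1bfl/fl. Psmb6 (β1) had 100.4 and 159.8 CPM in libraries labelled Ppm1bCKO, against 97.7 and 102.0 CPM in Ppm1bfl/fl. Psmb7 (β2) had 87.1 and 121.0 CPM in libraries labelled Ppm1bCKO, against 72.9 and 80.9 CPM in Ppm1bfl/fl. Log2 fold changes were 0.43 ± 0.25, 0.38 ± 0.22 and 0.44 ± 0.20 (edgeR adjusted p = 0.717 each). For Psmb5 and Psmb6 replicate 1 lay within the Ppm1bfl/fl range, and replicate 2 stood above all others. Per exonic kilobase, the 3 immunoproteasome genes together over the 3 constitutive genes were 0.608 and 0.524 in the libraries labelled Ppm1bCKO and 0.564 and 0.540 in Ppm1bfl/fl. The difference was 0.03 on the log2 scale (two-sided exact permutation p = 1.0), with SDs of 0.15 for Ppm1bCKO and 0.044 for Ppm1bfl/fl (n = 2 each). The ratio of Psmb8 to Psmb5 was 0.388 and 0.274 in libraries labelled Ppm1bCKO and 0.350 and 0.313 in Ppm1bfl/fl. That of Psmb9 to Psmb6 was 0.367 and 0.307 in libraries labelled Ppm1bCKO and 0.332 and 0.342 in Ppm1bfl/fl. That of Psmb10 to Psmb7 was 1.75 and 1.95 in libraries labelled Ppm1bCKO and 1.87 and 1.73 in Ppm1bfl/fl. The genotypes overlapped for each pair. The level of each ratio depends on the annotated exonic lengths.

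**Figure D2:**
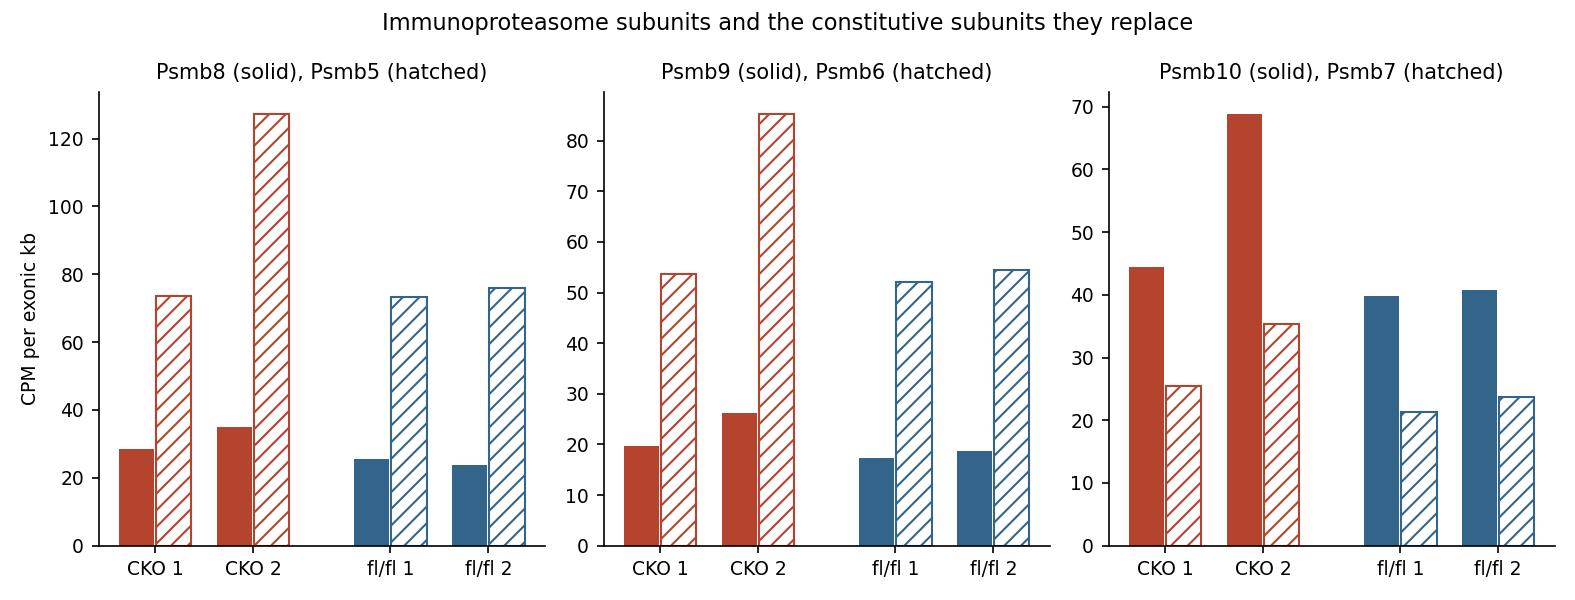
CPM per exonic kilobase (vertical axes from 0) of each immunoproteasome gene (solid bars) beside the constitutive gene it replaces (hatched bars), in the libraries labelled Ppm1bCKO (red) and Ppm1bfl/fl (blue), 1 bar per library and gene. Both kinds of subunit were highest in Ppm1bCKO replicate 2, and Psmb8 and Psmb9 stood below their partners and Psmb10 above its partner in all 4 libraries. In CPM not divided by length, Psmb8 stood above Psmb5 and Psmb10 below Psmb7 in all 4 libraries, so these orders depend on the annotated exonic lengths.

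Nlrc5 (ENSMUSG00000074151.13, chr8:94434356-94527272, plus strand), the class I transactivator, did not share the pattern of the other 9 genes. It had 116.7 and 68.0 CPM in the libraries labelled Ppm1bCKO, against 105.4 and 101.0 CPM in Ppm1bfl/fl, with a log2 fold change of -0.16 ± 0.24 (adjusted p = 0.843 by edgeR). Replicate 1 held the highest and replicate 2 the lowest value of the 4 libraries, so the genotypes overlapped. Leaving out replicate 2 gave a log2 fold change of 0.18 (adjusted p = 0.999 by edgeR), and leaving out replicate 1 gave -0.60 (adjusted p = 0.0068 by edgeR). Nlrc5 is the longest gene of the group, at 8493 exonic bases, and genes of this length were low in replicate 2. With each library's trend with gene length removed, an alternative added after the data were seen, its log2 fold change was -0.06.

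The other 9 genes are shorter. B2m, the shortest at 860 exonic bases, had a log2 fold change of 0.37 with the length trend removed, and Psmb10, at 1705 bases, one of 0.31. H2-K1 and Tapbp had 0.40 and 0.43, and Tap1 0.23. The median of the 10 genes was then 0.32, 9 of the 10 were positive, and 0 were called (edgeR adjusted p of at least 0.598; 4 at an unadjusted p under 0.05), where 0.336% of all genes were, and 0.0732% of all genes were called higher. The median was 0.22 without Ppm1bCKO replicate 2, where all 10 genes including Nlrc5 were positive, and 0.55 without Ppm1bCKO replicate 1. In the fit without replicate 1, in which the lone library is taken to vary like the others, 8 of the 10 genes were called, 7 higher and Nlrc5 lower, all but Tap1 and Tap2. In that fit 19.4% of all genes were called, 10.2% higher and 9.22% lower. That fit takes its spread from the Ppm1bfl/fl pair alone, and its lone Ppm1bCKO library is the one with the length trend. The part of either, or of RNA quality, in these calls was not tested.

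**Figure D3:**
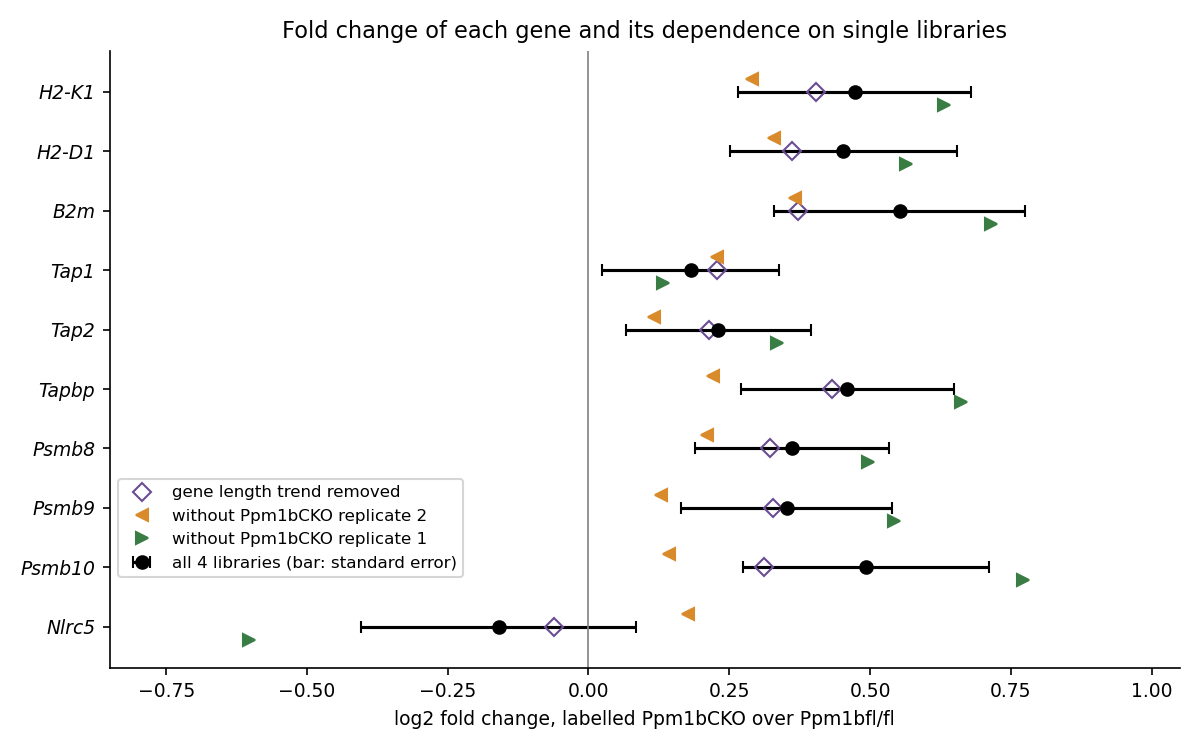
Log2 fold change of each gene, libraries labelled Ppm1bCKO over Ppm1bfl/fl, from all 4 libraries (black circles, bars 1 standard error), with the gene length trend removed (open diamonds), and without Ppm1bCKO replicate 2 (orange) or replicate 1 (green). All marks of 9 genes lie above 0, and those of Nlrc5 run from -0.60 to 0.18.

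**Figure D4:**
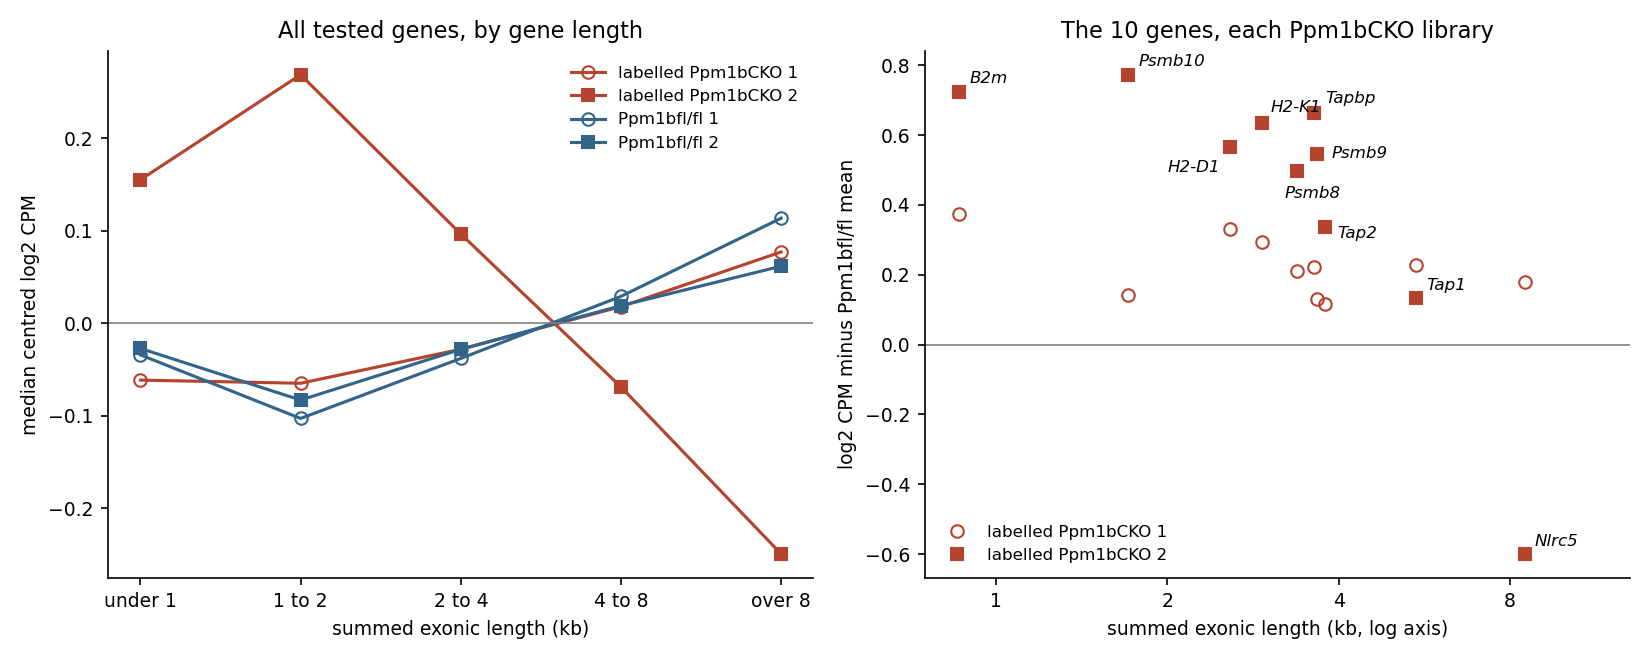
Left, the median over all tested genes of centred log2 CPM (vertical axis) by summed exonic length in kb for each library. Right, log2 CPM of the 10 genes in each library labelled Ppm1bCKO minus the Ppm1bfl/fl mean, against exonic length on a log axis. Replicate 2 (filled red squares) is at 0.16 in the shortest length class, peaks at 0.27 in the next and falls to -0.25 in the longest. Of the 10 genes the longest, Nlrc5, is the lowest in replicate 2 at -0.60.

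Per exonic kilobase, the order of the 10 genes was the same in all 4 libraries. B2m came first, at 2283 and 2912 CPM per kb in the libraries labelled Ppm1bCKO and 1599 and 1943 CPM per kb in Ppm1bfl/fl. H2-D1 followed at 501 to 777 CPM per kb over the 4 libraries and H2-K1 at 358 to 583 CPM per kb. Far below came Tapbp (48.3 to 76.5 CPM per kb), Psmb10 (39.8 to 68.9), Tap1 (34.5 to 41.2), Psmb8 (23.8 to 34.9), Tap2 (21.8 to 28.0), Psmb9 (17.3 to 26.2) and Nlrc5 (8.01 to 13.7). H2-D1 and H2-K1 overlapped in range, as did each pair of neighbours from Tapbp to Psmb9. B2m and H2-D1, H2-K1 and Tapbp, and Psmb9 and Nlrc5 did not overlap. The lengths sum all annotated exons, so genes with rarely used exons are given too low a level.

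Profiles over the 4 libraries put Nlrc5 and Tap1 farthest from the rest. The root mean square distance of a gene's centred log2 CPM from the median profile of the 10 was 0.49 for Nlrc5 and 0.18 for Tap1, and 0.046 to 0.12 for the other 8. Among 9990 genes outside the group with an average log2 CPM of at least 3, the 5 nearest to that profile were Eif3m, Ly6e, Eif3e, Taf13 and Hnrnph3, at distances of 0.013 to 0.021. Eif3m and Eif3e encode translation initiation factor subunits, and Ly6e a surface protein related to Sca-1. Ly6e reached 1261 and 1547 CPM in the libraries labelled Ppm1bCKO, against 1034 and 1086 CPM in Ppm1bfl/fl. Those 5 genes had log2 fold changes of 0.36 to 0.41, and none was called (edgeR adjusted p = 0.717 for each). They were picked by their profile over these same 4 libraries, so fold changes near those of the group follow from the choice.

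Other class I heavy chain genes had a median log2 fold change of 0.42, and their list median was about as high in one library labelled Ppm1bCKO as in the other. Of 11 tested genes 9 were positive, with both libraries labelled Ppm1bCKO above both others for each of them, where 20.6% of all tested genes showed that pattern. EdgeR called 0 of the 11 and had 5 at an unadjusted p under 0.05, where 6.44% of all genes had one. The list median lay 0.42 above the Ppm1bfl/fl mean in replicate 1 and 0.41 above it in replicate 2. For the 10 genes described first these values were 0.22 and 0.56. H2-Q6, a non-classical heavy chain gene, had 359 and 360 CPM in the libraries labelled Ppm1bCKO, against 220 and 264 CPM in Ppm1bfl/fl (log2 fold change 0.57 ± 0.17, edgeR adjusted p = 0.543). H2-T22, whose product is seen by γδ T cells, had 82.6 and 91.3 CPM in libraries labelled Ppm1bCKO, against 60.6 and 61.6 CPM in Ppm1bfl/fl (0.51 ± 0.16, edgeR adjusted p = 0.604). H2-Q4 and H2-M3, which presents formylated peptides, had log2 fold changes of 0.50 ± 0.16 and 0.51 ± 0.18 (edgeR adjusted p = 0.619 and 0.717). The negative genes were H2-Q10 and Mr1, which presents microbial vitamin metabolites. H2-Q genes are near-identical copies, so how reads were split among them is uncertain.

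Genes of the proteasome activator and of proteasome assembly were positive in 9 of 9 cases, with a median log2 fold change of 0.39. EdgeR called 0 of them (3 at an unadjusted p under 0.05). Of all tested genes 49.6% were positive, 0.372% were called and 6.44% had such an unadjusted p. Psme2, a subunit of the interferon-induced PA28 activator, had 73.3 and 112.0 CPM in the libraries labelled Ppm1bCKO and 63.4 CPM in each Ppm1bfl/fl library (0.55 ± 0.22, edgeR adjusted p = 0.717). Its partner Psme1 had 193 and 245 CPM in the libraries labelled Ppm1bCKO, against 161 and 175 CPM in Ppm1bfl/fl (0.39 ± 0.18, edgeR adjusted p = 0.717). Pomp, the assembly chaperone of the 20S core, and Psmg3, another assembly factor gene, had log2 fold changes of 0.55 ± 0.21 and 0.76 ± 0.33 (edgeR adjusted p = 0.717 each). The list median was 0.21 in replicate 1 and 0.64 in replicate 2. Without replicate 2 Psme2 was at 0.21, Psme1 at 0.20, Pomp at 0.23 and Psmg3 at 0.23.

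Peptide loading and trimming genes outside the group lay near all genes, with 8 of 14 positive, 0 called (0 at an unadjusted p under 0.05) and a median of 0.06. Erap1, the aminopeptidase that trims peptides in the endoplasmic reticulum, had 109.7 and 76.7 CPM in the libraries labelled Ppm1bCKO and 103 CPM in each Ppm1bfl/fl library (-0.15 ± 0.20, edgeR adjusted p = 0.825), or 0.09 without replicate 2. Pdia3, an oxidoreductase of the loading complex, had a log2 fold change of 0.24 ± 0.19 (0.09 without replicate 2). The trimming peptidase gene Blmh had 0.34 ± 0.17 (edgeR adjusted p = 0.717), or 0.18 without replicate 2, the chaperone gene Hspa5 0.29 ± 0.23 (-0.0073 without replicate 2) and the translocon gene Sec61a1 -0.24 ± 0.18 (-0.06 without replicate 2).

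Among 20 regulators of class I genes, 10 were positive and 10 negative, with a median of -0.01. EdgeR called 0 of them and had 3 at an unadjusted p under 0.05, where 6.44% of all genes had one. Irf1, which drives class I and immunoproteasome genes under interferon, had 128 and 146 CPM in the libraries labelled Ppm1bCKO, against 101.3 and 96.2 CPM in Ppm1bfl/fl (0.47 ± 0.16, edgeR adjusted p = 0.650). The genotypes did not overlap for Irf1. Irf9, a subunit of an interferon-activated transcription factor, had a log2 fold change of 0.33 ± 0.16, and Prdm1, a repressor that is also a plasma cell regulator, one of -0.94 ± 0.24 (edgeR adjusted p = 0.366). Among 10 interferon receptor signalling genes 6 were positive and 0 were called (1 at an unadjusted p under 0.05), with a median of 0.07. Ptpn2, a phosphatase that restrains cytokine signalling, had 0.51 ± 0.18, the feedback inhibitor gene Socs1 0.81 ± 0.40, Ifngr2 0.20 ± 0.18 and Tyk2 -0.28 ± 0.18. Without Ppm1bCKO replicate 2 these were 0.34 for Ptpn2, 0.08 for Socs1, 0.02 for Ifngr2 and -0.11 for Tyk2.

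Receptors that read class I molecules or their partners had a median of 0.19, with 9 of 15 positive and 0 called by edgeR (2 at an unadjusted p under 0.05). The natural killer receptor genes Klra7, Klra3 and Klrd1 had log2 fold changes of 0.59 ± 0.26, 0.92 ± 0.46 and 0.47 ± 0.24 (edgeR adjusted p = 0.717 each), and reads of the Klra genes may be split among close copies. Lrp1, a scavenger receptor on the list because it binds calreticulin, had 107.8 and 60.5 CPM in the libraries labelled Ppm1bCKO, against 190 and 173 CPM in Ppm1bfl/fl (-1.11 ± 0.26, edgeR adjusted p = 0.266). Lrp1 was the only gene of these lists that DESeq2 called (adjusted p = 0.00283), where 0.821% of all genes were called lower. It is abundant in macrophages. Over the 82 tested genes of all these lists outside the group, 54 were positive, with a median of 0.14. EdgeR called 0 of the 82 (14 at an unadjusted p under 0.05). Over all tested genes 49.6% were positive, 0.372% were called by edgeR and 6.44% had such an unadjusted p.

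**Figure D5:**
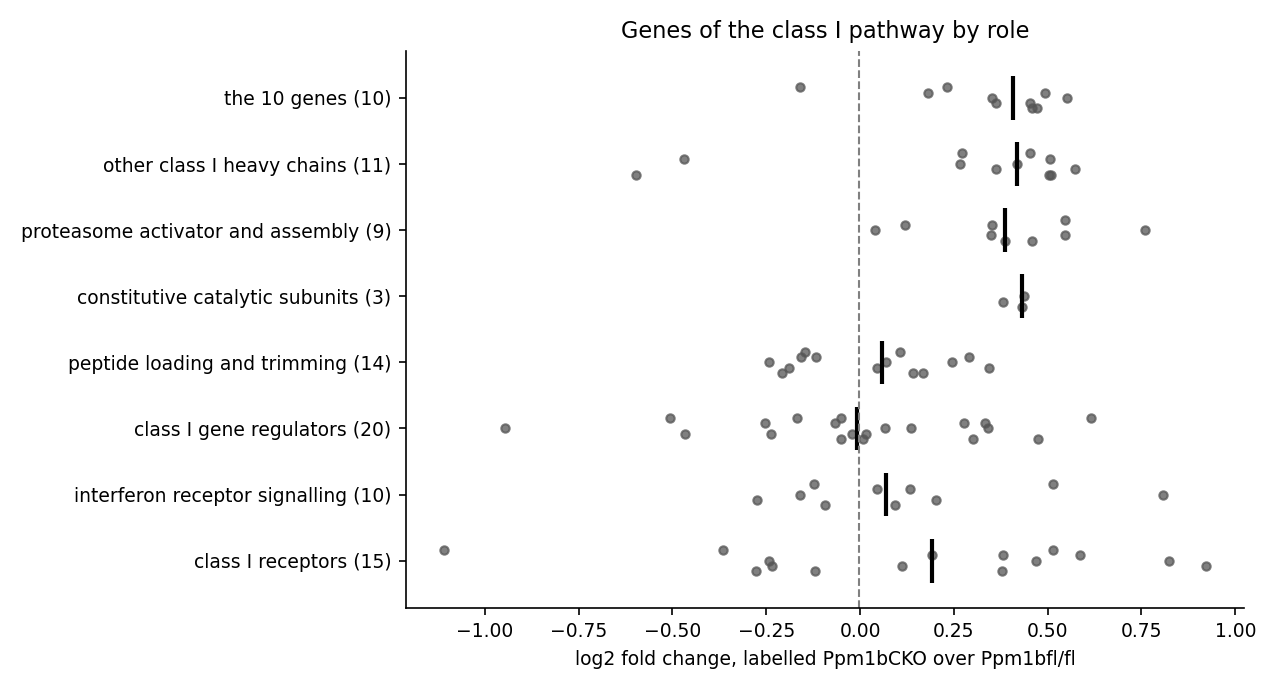
Log2 fold change, libraries labelled Ppm1bCKO over Ppm1bfl/fl, of each tested gene (points) in the group and in 7 lists of class I pathway genes, with the number tested in brackets, list medians as black bars and the median of all tested genes as a dashed line. The other heavy chains (median 0.42) and the proteasome activator and assembly genes (0.39) lie near the 10 genes (0.41), and the regulators (-0.01) and the loading and trimming genes (0.06) near 0.

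Markers of other cell types also differed between the libraries. All 8 B cell markers had positive log2 fold changes, and they summed to 254 and 520 CPM in libraries labelled Ppm1bCKO, against 168 and 173 CPM in Ppm1bfl/fl. Ms4a1 (CD20) had 14.8 and 31.2 CPM in libraries labelled Ppm1bCKO, against 5.45 and 8.59 CPM in Ppm1bfl/fl. All 8 plasmacytoid dendritic cell markers were positive, summing to 742 and 810 CPM in libraries labelled Ppm1bCKO, against 612 and 568 CPM in Ppm1bfl/fl, and Siglech had 47.4 and 50.4 CPM in libraries labelled Ppm1bCKO, against 24.9 and 19.96 CPM in Ppm1bfl/fl. The genotypes did not overlap for these sums, nor for the eosinophil, neutrophil and stromal or endothelial sums, all higher in libraries labelled Ppm1bCKO. Of all tested genes 20.6% showed that pattern. The macrophage and plasma cell sums did not overlap either and were lower, a pattern that 20.6% of all tested genes showed. Sums of LSK progenitor, conventional dendritic cell, monocyte, erythroid, and T and NK markers overlapped. A large part of the plasmacytoid dendritic cell sum was Irf8, with a log2 fold change of 0.14. It had 439 and 399 CPM in libraries labelled Ppm1bCKO, against 390 and 372 CPM in Ppm1bfl/fl.

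All 10 macrophage markers were negative, summing to 352 and 435 CPM in libraries labelled Ppm1bCKO, against 534 and 582 CPM in Ppm1bfl/fl, while Adgre1 (F4/80) had 43.7 and 45.4 CPM in libraries labelled Ppm1bCKO and 43.9 and 46.5 CPM in Ppm1bfl/fl. Of 8 plasma cell markers 7 were negative. They summed to 765 and 1021 CPM in libraries labelled Ppm1bCKO, against 2805 and 1686 CPM in Ppm1bfl/fl, most of it Jchain, with 463 and 624 CPM in libraries labelled Ppm1bCKO and 2448 and 1377 CPM in Ppm1bfl/fl. Of 8 eosinophil markers 7 were positive, summing to 4413 and 7722 CPM in libraries labelled Ppm1bCKO, against 2932 and 3227 CPM in Ppm1bfl/fl. T and NK markers, 6 of 8 positive, overlapped between genotypes, at 170 and 200 CPM in libraries labelled Ppm1bCKO and 171 and 146 CPM in Ppm1bfl/fl. Over the 98 entries of all 12 marker lists, with 1 gene in 2 of them, edgeR called 0 (32 at an unadjusted p under 0.05) and DESeq2 called 21, where 6.44% of all genes had such an unadjusted p and DESeq2 called 1.24%. The DESeq2 calls held 5 B cell, 4 plasmacytoid dendritic cell, 4 eosinophil, 3 macrophage and 2 plasma cell markers, and 3 from other lists. No marker was at 0 in all libraries. The part of these cells in the class I values was not tested.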

How the data were processed

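Bulk RNA-seq libraries from total RNA of pre-sorted bone marrow cells, made with a TruSeq RNA kit per the labels' protocols, were compared by genotype. The authors deposited 1 table of raw gene counts. The submitters' processing notes name mm10, featureCounts 2.0.1, HISAT2 2.2.0 and Trim Galore 0.6.7; annotation release, strand setting and treatment of multi-mapping reads are not given in the sources used here. Gene lengths, in bases, are those deposited per the file headers. Of 55399 identifiers, 55139 matched GENCODE M21 symbols. The main test was edgeR 4.0.16, run in R 4.3.3 (TMM; filterByExpr with a minimum count of 10 and total of 15; robust quasi-likelihood fit; Benjamini-Hochberg over 16393 genes; threshold 0.05). The biological coefficient of variation was 19.1%. CPM values are TMM-normalised; SEs belong to log2 fold changes. DESeq2 1.42.0 and limma 3.58.1 (voom) were alternatives. Chi-square statistics between replicates, divided by their degrees of freedom, were 53.5 (Ppm1bCKO) and 25.5 (Ppm1bfl/fl), above sampling noise. A count of 0 allows up to 3 counts (0.0998 to 0.134 CPM), counting error only. The fit was tested on simulated data. The members, lists and tests were chosen with earlier results of these data known. Besides the members, up to 4 genes per list with the smallest p, the 5 nearest profiles, 9 cell markers and fixed genes (Ppm1b, Psmb5 to Psmb7, Psme1, Psme2, Irf1, Erap1) were named; 1 gene that this rule names is not reported here. Promoters are RefSeq's on GRCm38.p6, aligned with Biopython 1.88; transcripts are GENCODE M21's.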

Additional observations from a re-analysis of the deposited data

How the results depend on the processing

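The 10 genes were recomputed under 12 alternatives, of which removing the gene length trend was chosen after the data were seen. Nlrc5 ran from -0.60 (without Ppm1bCKO replicate 1) to 0.18 (without Ppm1bCKO replicate 2). The sign of the other 9 genes was positive under every one of the 12. For these 9 genes both libraries labelled Ppm1bCKO already lay above both others, as for 20.6% of all tested genes. Leaving out a single library could therefore hardly turn their sign. With single libraries left out, the count of the 10 genes past the threshold ran from 0 to 8, their median log2 fold change from 0.22 to 0.55, the summed heavy chains from 0.31 to 0.59 (edgeR adjusted p = 0.00355 without Ppm1bCKO replicate 1), the called pathway genes from 0 to 37 and the called genes in the whole table from 94 to 3336, against 61 with all libraries. The high ends came without Ppm1bCKO replicate 1. DESeq2 called 199 genes, no low-count filter 311, and leaving out immunoglobulin genes 0 (989 at an unadjusted p under 0.05). With the replicate block 207 were called, 0 of them among the 10 genes, whose median was 0.40. DESeq2, no low-count filter and the block each called 1 pathway gene. Labels do not say that a replicate number marks a shared animal or day, and same-numbered libraries deviated together with a correlation of 0.064. The sign of 8 other genes turned when single libraries were left out: Erap1 from -0.43 to 0.088, Hspa5 from -0.0073 to 0.53, Psmb5 from -0.020 to 0.77, Cd34 from -0.17 to 0.049, Flt3 from -0.50 to 0.049, Ly6a from -0.19 to 0.14, Adgre1 from -0.066 to 0.019 and Cd3e from -0.15 to 0.020. With the length trend removed Cd34 was at 0.041. The ratio of immunoproteasome to constitutive subunits had a log2 difference of -0.08 to 0.14 when single libraries were left out. It kept within 1 SD of its value under its alternatives. Leaving out a single library or adding the replicate block could not have moved it past that limit, so these do not check it. The 10 genes had at least 1615 counts in every library. The causes of these dependences were not tested.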
